A study of Mus musculus with 6 samples.

Results

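The genes described here are 10 members of the cell-surface heparan sulfate system: the extracellular sulfatases Sulf1 and Sulf2, the glypicans Gpc1, Gpc2, Gpc3, Gpc4 and Gpc6, and the syndecans Sdc1, Sdc3 and Sdc4. They were taken by symbol from tables of 17006 genes, and all 10 symbols were present. The group was selected on gene family with the FPKM of these same aged and young libraries known. The libraries came from primary neural stem cells of the subventricular zone, where the adult brain makes new neurons, taken from C57BL/6 mice that were aged (15 to 18 months) or young (2 months), with 3 libraries per age. The labels name no treatment or genotype that differed between the ages. Each preparation pooled the tissue of 5 mice, and the dissociated cells grew in medium for proliferation before total RNA was taken, so the values describe cultured cells and not the tissue. The labels do not say whether the 3 libraries of an age came from separate pools, so the spread between them may be technical.

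Heparan sulfate is a long sugar chain that is polymerized in the Golgi on core proteins, and its pattern of sulfate groups decides which growth factors and morphogens it binds. Glypicans carry such chains on a core tied to the membrane by a lipid (GPI) anchor, whereas syndecans span the membrane and end in a short cytoplasmic tail. Sulf1 and Sulf2 are secreted enzymes that remove 6-O-sulfate groups from finished chains outside the cell, which changes how cells respond to FGF, Wnt, BMP and other ligands. In the adult subventricular zone, heparan sulfate is known for holding FGF2 and other mitogens of neural stem cells near the cells.

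Of the 10 genes, Sulf1 was the member that fell in cells of aged mice, a call that held in 8 of 15 alternative settings. It averaged 3.97 ± 0.235 FPKM in aged and 7.05 ± 0.755 FPKM in young libraries (SD, n = 3 each). Its abundant paralog Sulf2 and the 3 syndecans lay within 10% of the young mean, though without overlap between the ages, and did not pass the threshold. Among the glypicans, Gpc4 was 30.3% lower in aged libraries without overlap. Gpc6 had a higher mean with overlap (6.44 FPKM in aged and 5.36 FPKM in young libraries). Neither passed the threshold. Because the genes were put together with earlier results of these samples known, their values for this comparison are a description and support nothing further.

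The sulfatases are shown by the coding stretch around the active site, because it is the part that makes both of them sulfatases. Capitals mark the codons of the sulfatase signature, in which a cysteine is converted to formylglycine, the catalytic residue. In each coding sequence 1 in-frame match was found. The stretch of Sulf1 lies in exon 5 of 22 (GRCm38 chr1:12796822-12796896, plus strand) and that of Sulf2 in exon 3 of 21 (chr2:166116981-166117055, minus strand) of GENCODE transcripts.
Sulf1: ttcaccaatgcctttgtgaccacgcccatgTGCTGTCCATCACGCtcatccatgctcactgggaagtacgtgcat
Sulf2: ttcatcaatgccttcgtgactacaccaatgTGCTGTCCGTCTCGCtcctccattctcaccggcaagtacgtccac
The stretches are identical at 62 of 75 positions, and the whole coding sequences at 68.8% of aligned bases, with a longest shared run of 20 bases. For the syndecans the end of the cytoplasmic tail is shown, with the last codons, the site where PDZ proteins such as syntenin bind, in capitals. It is coded in exon 5 of 5 in each gene, at chr12:8791745-8791804 (plus strand) for Sdc1, chr4:130822747-130822806 (plus) for Sdc3 and chr2:164426089-164426148 (minus) for Sdc4.
Sdc1: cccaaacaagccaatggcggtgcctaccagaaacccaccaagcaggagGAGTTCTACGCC
Sdc3: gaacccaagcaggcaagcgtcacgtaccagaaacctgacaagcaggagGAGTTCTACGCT
Sdc4: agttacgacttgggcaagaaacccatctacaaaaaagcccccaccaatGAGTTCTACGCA
The capitals agree at 11 of 12 positions among the syndecans. The coding sequences of syndecans shared at most 29 bases in a row and those of glypicans at most 17, with 62.3% to 66.6% and 52.3% to 66.5% of aligned bases identical.

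The 6 libraries held about 5390000 to 5620000 counted reads each, as read from the steps between low values. All values below are FPKM, fragments per kilobase of transcript scaled to library size, so levels can be compared between genes. The libraries carried the markers of neural progenitors (Fabp7 at 2662 to 2878 FPKM, Olig2 at 530 to 561 FPKM over all 6). Of the 6 progenitor markers, 2 were higher and 2 lower in aged libraries without overlap, and 0 were called by limma. Beside this and the like counts of markers below, 8.98% of the 11912 genes tested were higher without overlap and 8.58% lower. Astrocyte markers summed to 535.6 to 539.5 FPKM in aged and 544.5 to 549.9 FPKM in young libraries, nearly all Aldh1l1 and Slc1a3. Of these 4, 2 were higher and 1 lower in aged libraries without overlap, and 0 were called. Ependymal and choroid plexus markers summed to 8.57 to 12.25 FPKM in aged and 10.87 to 12.79 FPKM in young libraries, mostly Foxj1. The summed level of the fibroblast and pericyte markers was 2.68 to 3.72 FPKM in aged and 0.45 to 0.64 FPKM in young libraries. Of the 6 of these markers in the tables, 3 were higher in aged libraries without overlap. Only Col1a1 reached the mean of 1 FPKM needed for testing, so the share over tested genes does not cover the others. Col1a1 had 2.04, 2.53 and 2.81 FPKM in aged and 0.54, 0.31 and 0.42 FPKM in young libraries (log2 change 1.28, limma adjusted p = 0.0107). Col1a2 was at 0.54 to 0.75 FPKM in aged and 0 to 0.04 FPKM in young libraries, and Col3a1 at 0.10 to 0.16 FPKM in aged and 0 to 0.06 FPKM in young ones. Dcn and Rgs5 were listed at 0 in every aged library and reached 0.10 FPKM in young ones, and Pdgfrb reached at most 0.03 FPKM in any library. Neuroblast and neuron markers summed to 16.3 to 19.3 FPKM in aged and 12.8 to 14.2 FPKM in young libraries, mostly Tubb3. Dcx, Tubb3 and Snap25 were higher in aged libraries without overlap, and Rbfox3 and Syt1 overlapped. Of the 2 tested, Tubb3 and Snap25, 0 were called (limma adjusted p = 0.140 and 0.181). Oligodendrocyte precursor markers summed to 1485 to 1521 FPKM in aged and 1403 to 1434 FPKM in young libraries, nearly all of it Olig1. All 4 of them were higher in aged libraries without overlap and 0 were called by limma, with means for Pdgfra of 2.25 FPKM in aged and 1.53 FPKM in young libraries. Cspg4 had means of 18.6 FPKM in aged and 13.9 FPKM in young libraries (limma adjusted p = 0.0604). Endothelial markers summed to 0.83 to 1.03 FPKM in aged and 1.04 to 2.25 FPKM in young libraries. The 2 microglial markers in the tables, Cx3cr1 and Ptprc, summed to 0.36 to 0.46 FPKM in aged and 0.19 to 0.34 FPKM in young libraries, with Ptprc at 0.04 FPKM or less. The part of these other cells in the results below was not tested. In bulk samples fewer cells of a type and less RNA per cell cannot be told apart.

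By level, Sdc3 stood first with a mean of 206.8 FPKM over the 6 libraries, followed by Sulf2 with 184.7 FPKM, Gpc1 with 60.9 FPKM and Sdc4 with 55.6 FPKM. The ranges of these 4 genes did not overlap. Gpc2 (16.7 FPKM) and Sdc1 (15.6 FPKM) had ranges that overlapped each other, and so had Gpc6 (5.90 FPKM), Sulf1 (5.51 FPKM) and Gpc4 (4.81 FPKM). These ranges pool both ages: Sulf1 lay above Gpc6 in each young library and below it in each aged one. Gpc3 came last with 0.472 FPKM and was the only member under the mean of 1 FPKM needed for testing.

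**Figure D1:**
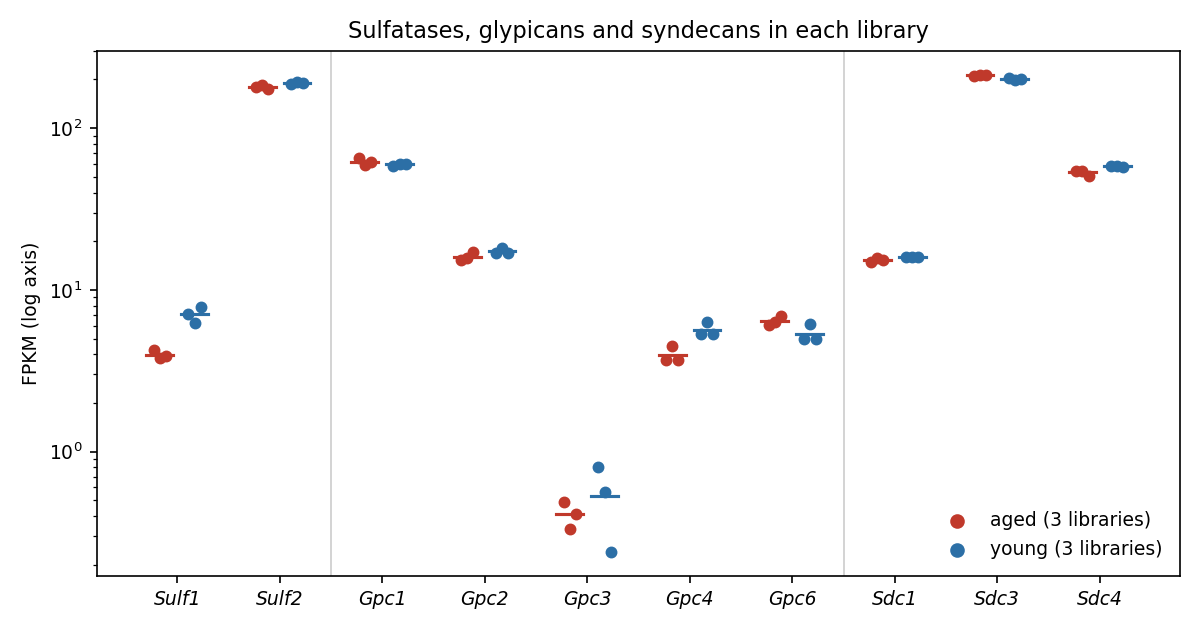
FPKM on a log axis for each of the 10 members, with 1 point per library, aged left of young, and a bar at each mean of 3 libraries. Sdc3 and Sulf2 lie highest and Gpc3 lowest, and the aged points of Sulf1 (3.78 to 4.23 FPKM) lie below its young points (6.28 to 7.79 FPKM).

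Aged and young libraries were compared by limma's two-sided test on log2(FPKM + 1). The 11912 genes whose mean reached 1 FPKM entered it, and p-values were adjusted by Benjamini-Hochberg. They measure only the spread between these libraries. At an adjusted p under 0.05, 0.722% of tested genes were called, and 0.395% were called lower in aged libraries. Of the 9 tested members, 1 was called lower and 0 were called higher. At an unadjusted p under 0.05 these counts were 4 lower and 2 higher, where 5.55% of tested genes passed lower, 6.30% higher and 11.9% in either direction. The groups did not overlap in 6 of the 9, with 5 lower and 1 higher in aged libraries, where 8.58% of tested genes were lower without overlap and 8.98% higher. The median log2 change of the 9 was -0.085, beside 0.003 over all genes tested.

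Sulf1 (gene 240725, mm10 chromosome 1, 12692197 to 12861192) had 4.23, 3.78 and 3.89 FPKM in the aged libraries 1 to 3, against 7.08, 6.28 and 7.79 FPKM in the young ones. The highest aged value lay below the lowest young one. These levels correspond to means of about 108 estimated reads in aged and 191 in young libraries. On the log2 scale the change was -0.69 ± 0.10 (SE), and limma's p adjusted over all tested genes was 0.0163. The direction was kept in all 15 alternative settings, with log2 changes from -0.81 to -0.42, but the adjusted p was under 0.05 in 8 of them. It was 0.0630 without limma's trend, 0.0554 when low genes were kept, and 0.0668 in a fit blocked on replicate number. Leaving out aged 2, aged 3, young 1 or young 3 gave an adjusted p of 0.0577, 0.0704, 0.0799 and 0.0723, in that order.

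**Figure D2:**
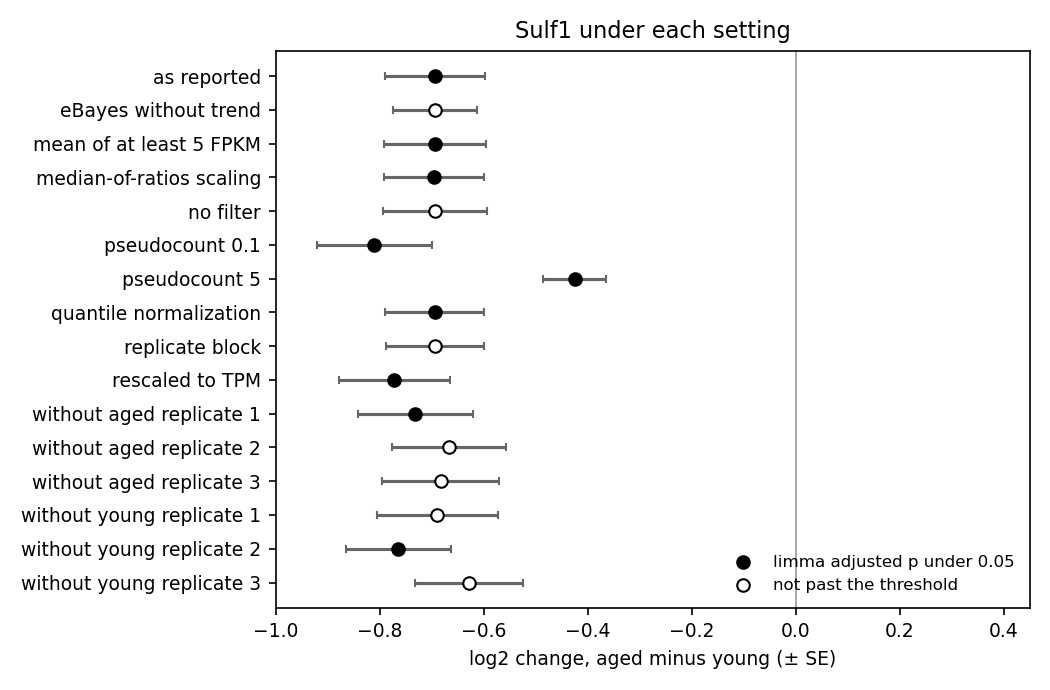
Log2 change of Sulf1, aged minus young, with its SE, as reported and under each of 15 other settings, which run down the page. Filled points have a limma adjusted p under 0.05 and open points do not. All points lie between -0.81 and -0.42, and the 7 open ones include 4 of the 6 settings that leave out a library.

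Sulf2 (gene 72043, chromosome 2, 166073899 to 166155683) was at 178.85, 183.84 and 175.12 FPKM in aged libraries, against 187.55, 192.15 and 190.88 FPKM in young ones. Every aged value was lower than every young one, by a small margin, with means of 179.3 ± 4.38 and 190.2 ± 2.38 FPKM (SD, n = 3 each). This is a log2 change of -0.09 ± 0.03 (SE; limma adjusted p = 0.317). Sulf1 and Sulf2 act on the same chains, so their levels are also given against each other. Sulf2 exceeded Sulf1 in FPKM 42.3, 48.6 and 45.02 times in aged libraries, against 26.5, 30.6 and 24.5 times in young ones. Sulf1 therefore made up 2.17 ± 0.148% of the summed sulfatase FPKM in aged and 3.57 ± 0.382% in young libraries (SD, n = 3 each). The sum itself was 179.0 to 187.6 FPKM in aged and 194.6 to 198.7 FPKM in young libraries, so that most of its difference in FPKM came from Sulf2.

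**Figure D3:**
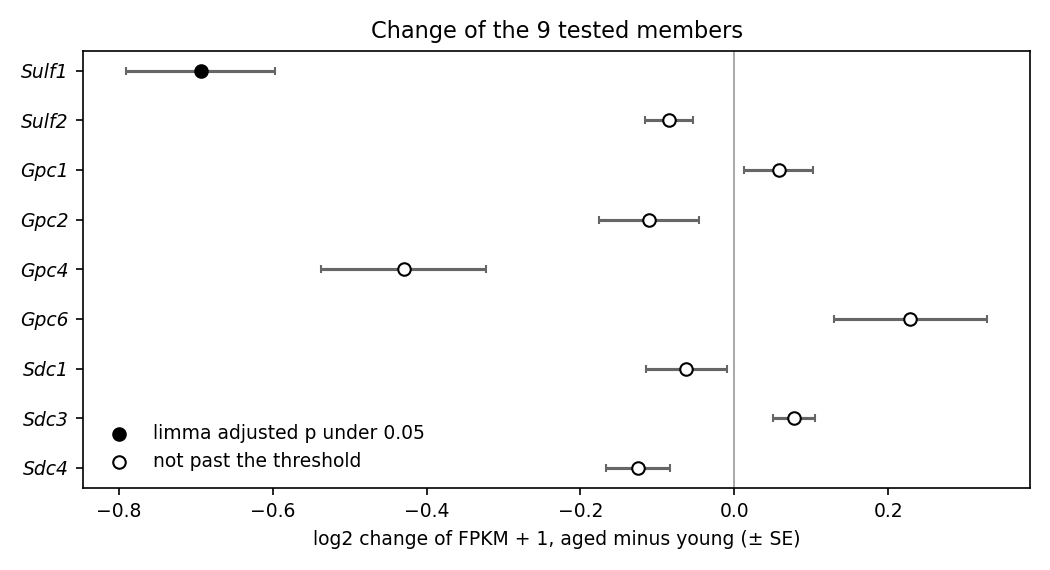
Log2 change of FPKM + 1, aged minus young, for the 9 tested members, with SE bars over 6 libraries. Sulf1 at -0.69 is the only filled point (limma adjusted p under 0.05), followed by Gpc4 at -0.43, and Gpc6 lies farthest to the right at 0.23.

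Gpc1 is the glypican with the highest level here, and in the nervous system its chains bind FGF2 and Slit proteins. It made up 69.8 ± 1.87% of the summed FPKM of the 5 glypicans in aged and 67.4 ± 1.47% in young libraries (SD, n = 3 each). Its values were 65.47, 59.35 and 61.63 FPKM in aged libraries and 58.60, 60.13 and 60.18 FPKM in young ones. The groups overlapped, and the log2 change was 0.06 ± 0.04 (SE; limma adjusted p = 0.694). Gpc2, also called cerebroglycan and known from developing neurons, was at 15.23, 15.64 and 17.20 FPKM in aged libraries, against 16.87, 18.28 and 16.95 FPKM in young ones. These groups overlapped too, through the third aged library (log2 change -0.11 ± 0.07, SE).

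Gpc4 (gene 14735, chromosome X, 52051007 to 52164923), a glypican known from neural precursors and, as a secreted factor of astrocytes, for promoting excitatory synapses, had 3.68, 4.51 and 3.66 FPKM in aged libraries. In young libraries it had 5.33, 6.33 and 5.33 FPKM. The groups did not overlap, with about 57.5 estimated reads in aged and 82.4 in young libraries. The log2 change was -0.43 ± 0.11 (SE; limma adjusted p = 0.1499), and that p lay between 0.116 and 0.373 over its alternatives. Gpc6, the glypican closest to Gpc4 in sequence (66.5% of aligned bases) and another astrocyte-secreted factor, was at 6.07, 6.34 and 6.90 FPKM in aged libraries, against 4.95, 6.15 and 4.99 FPKM in young ones. One young library, the second, reached above the lowest aged one. The log2 change was 0.23 ± 0.10 (SE; limma adjusted p = 0.419).

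The ratio of Gpc6 to Gpc4, a quantity chosen after the values were seen, was 1.65, 1.41 and 1.89 in aged libraries and 0.929, 0.972 and 0.936 in young ones. Gpc6 was thus above Gpc4 in each aged library and a little below it in each young one. The summed level of the 5 glypicans was 86.2 to 90.9 FPKM in aged and 86.6 to 91.5 FPKM in young libraries, so the ranges overlapped.

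**Figure D4:**
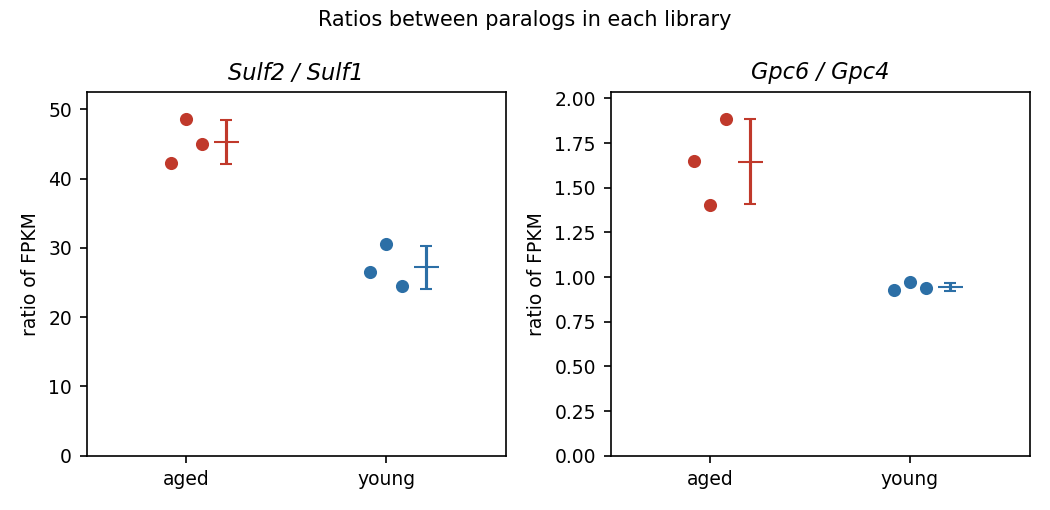
Ratio of Sulf2 to Sulf1 (left) and of Gpc6 to Gpc4 (right) in each library, from FPKM, with aged left of young and the mean ± SD of 3 libraries beside the points. The aged ratios are 42.3 to 48.6 and 1.41 to 1.89, above the young ratios of 24.5 to 30.6 and 0.929 to 0.972.

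Gpc3, which in mice restrains growth and binds Hedgehog ligands, had 0.49, 0.33 and 0.41 FPKM in aged libraries and 0.80, 0.56 and 0.24 FPKM in young ones. That is about 2.88 to 9.56 estimated reads per library. The groups overlapped, and at this level Gpc3 was not tested. Gpc3 and Gpc4 are neighbours on chromosome X, with 107502 bases between them in RefSeq on GRCm38.p6, and Gpc5 and Gpc6 on chromosome 14, with 399727 bases between them. Gpc5, the glypican that is no member, was at 0.84, 0.58 and 1.09 FPKM in aged libraries and 1.2, 1.01 and 1.13 FPKM in young ones, under the filter and with overlap. In each pair the same gene, Gpc4 or Gpc6, was the more abundant in all 6 libraries.

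Sdc3, the syndecan of the nervous system, made up 75.6 ± 0.713% of the summed FPKM of the 3 syndecans in aged and 73.1 ± 0.189% in young libraries (SD, n = 3 each). Its values were 209.70, 213.12 and 214.42 FPKM in aged libraries, against 203.46, 199.21 and 201.07 FPKM in young ones. It was the only tested member with every aged value above every young one (log2 change 0.08 ± 0.03, SE; limma adjusted p = 0.310). Sdc4, a co-receptor of integrins at focal adhesions, was at 54.62, 54.12 and 50.87 FPKM in aged libraries, against 58.38, 58.06 and 57.83 FPKM in young ones. Here every aged value was lower (log2 change -0.13 ± 0.04, SE; limma adjusted p = 0.272). Sdc1, the main syndecan of epithelia, which is also found in neural progenitors, had 14.91, 15.69 and 15.25 FPKM in aged libraries and 15.91, 16.06 and 16.04 FPKM in young ones. Its aged values were lower without overlap, with a log2 change of -0.06 ± 0.05 (SE; limma adjusted p = 0.720). Sdc2, the fourth syndecan and no member, had means of 11.9 ± 0.367 FPKM in aged and 11.6 ± 0.595 FPKM in young libraries (SD, n = 3 each; limma adjusted p = 0.889). The summed level of the 3 syndecans was 279.2 to 282.9 FPKM in aged and 273.3 to 277.8 FPKM in young libraries.

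RefSeq promoter entries on GRCm38.p6 matched 7 of the 10 members: Sulf2, Gpc2, Gpc3, Gpc4, Sdc1, Sdc3 and Sdc4. The 250 bases before the most upstream start are shown for Gpc4 and Sdc4, both lower without overlap in aged libraries, and for Sdc3, which was higher. Capitals mark GC boxes (GGGCGG on either strand), the usual binding motif of Sp factors.
Gpc4 (chrX:52164924-52165173, minus strand): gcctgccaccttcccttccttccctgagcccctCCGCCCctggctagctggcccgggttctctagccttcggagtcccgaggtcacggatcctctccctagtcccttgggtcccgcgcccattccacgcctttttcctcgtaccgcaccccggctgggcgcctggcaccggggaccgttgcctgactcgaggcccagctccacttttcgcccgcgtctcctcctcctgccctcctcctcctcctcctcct
Sdc4 (chr2:164443189-164443438, minus strand): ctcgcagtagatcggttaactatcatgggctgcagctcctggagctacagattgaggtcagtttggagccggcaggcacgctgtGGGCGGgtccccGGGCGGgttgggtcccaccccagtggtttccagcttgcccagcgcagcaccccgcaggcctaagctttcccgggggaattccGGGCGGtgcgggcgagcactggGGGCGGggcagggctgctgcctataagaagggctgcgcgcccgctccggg
Sdc3 (chr4:130792287-130792536, plus strand): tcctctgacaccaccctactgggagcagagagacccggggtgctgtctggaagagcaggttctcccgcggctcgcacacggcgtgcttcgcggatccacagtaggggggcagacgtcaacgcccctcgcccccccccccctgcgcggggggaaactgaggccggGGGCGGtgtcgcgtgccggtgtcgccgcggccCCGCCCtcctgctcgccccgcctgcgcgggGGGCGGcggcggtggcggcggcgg
A GC box was found in 7 of these 7 windows, with 1 match in Gpc4, 4 in Sdc4 and 3 in Sdc3, and in 33.0% of 27025 promoters of the same length. ACGTG, the core of the hypoxia-response element, was searched on both strands and is not in any of the 7 windows, beside 16.5% of all promoters. TATAAA, also searched on both strands, is in that of Sulf2 alone, beside 3507 of all 27025. The E box, CANNTG, is in 3 of the 7 windows, beside 66.1% of all promoters. The windows hold 10 to 32 CG dinucleotides, where the median of all promoters is 6. A match is a string of letters and shows neither a bound site nor which start the cells use.

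The other genes of heparan sulfate synthesis, breakdown and use were read from 8 lists of 80 genes, of which 78 were in the tables and 60 passed the filter. By limma, 1 of the 60 rose and 1 fell, both among the ligands, and 58 did not pass, where 0.722% of all tested genes were called. Their median log2 change was -0.022.

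Among the other core proteins, 0 of 4 tested genes passed limma. At an unadjusted p under 0.05, 1 was lower, beside 5.55% of all tested genes. Agrn, which encodes agrin, had means of 57.4 ± 2.24 FPKM in aged and 57.5 ± 1.35 FPKM in young libraries (SD, n = 3 each). Hspg2, which encodes perlecan, was at 7.76 FPKM in aged and 8.58 FPKM in young libraries. Col18a1, the collagen that carries heparan sulfate in basement membranes, was at 6.38, 5.80 and 5.95 FPKM in aged and 7.53, 7.02 and 7.93 FPKM in young libraries (limma adjusted p = 0.223).

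Of the enzymes that build the chain, 0 of 7 for the linker, 0 of 4 for polymerization and 0 of 8 for sulfation and epimerization passed limma (adjusted p from 0.287 to 0.990). At an unadjusted p under 0.05, 1 of them was lower, beside 5.55% of all tested genes. Xylt1, which starts the linker, had means of 50.9 FPKM in aged and 53.3 FPKM in young libraries. The linker enzymes B3gat3 and Fam20b were at 33.6 and 21.8 FPKM in aged and 34.2 and 22.2 FPKM in young libraries. Of the polymerases, Ext1 was at 30.9 and Ext2 at 39.1 FPKM in aged libraries, against 32.0 and 39.3 FPKM in young ones, and the related Extl3 was at 34.8 FPKM in aged and 37.3 FPKM in young libraries. The enzymes that add sulfate were also present: Ndst1, which opens the way for the others, was at 20.5 FPKM in aged and 22.2 FPKM in young libraries, and the 2-O-sulfotransferase Hs2st1 at 28.7 FPKM in aged and 27.8 FPKM in young libraries. Hs6st1 adds the 6-O-sulfate that the sulfatases remove. It was at 14.91, 15.92 and 16.51 FPKM in aged and 17.76, 17.15 and 15.93 FPKM in young libraries, with overlap (limma adjusted p = 0.641). Its relative Hs6st2 was at 4.80 FPKM in aged and 4.45 FPKM in young libraries, also with overlap (limma adjusted p = 0.850). Hs3st3b1, a 3-O-sulfotransferase, was at 2.95 ± 0.371 FPKM in aged and 3.95 ± 0.349 FPKM in young libraries (SD, n = 3 each) without overlap. Reads it may share with its paralog Hs3st3a1 were not examined, so its level is uncertain.

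Of the breakdown enzymes, 0 of 8 tested passed limma. At an unadjusted p under 0.05, 2 were lower, beside 5.55% of all tested genes. The list did not lean lower: 5 of the 8 had a log2 change above 0 and 3 below, with a median of 0.041. The lysosomal glucuronidase Gusb was at 22.03 ± 1.80 FPKM in aged and 24.8 ± 0.285 FPKM in young libraries (SD, n = 3 each; limma adjusted p = 0.333). Ids, the lysosomal sulfatase of iduronate, was at 15.9 FPKM in aged and 16.9 FPKM in young libraries. Heparanase (Hpse) was at 0.24 FPKM or less in every library.

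For the supply of precursors and the activation of sulfatases, 0 of 9 tested genes passed limma. At an unadjusted p under 0.05, 3 lay higher, beside 6.30% of all tested genes. Papss1, which makes the sulfate donor PAPS, was at 79.26, 78.84 and 80.57 FPKM in aged and 72.81, 72.55 and 75.52 FPKM in young libraries (limma adjusted p = 0.255). Sumf1, the enzyme that makes the formylglycine of sulfatases, had means of 14.03 FPKM in aged and 14.6 FPKM in young libraries with overlap. Its relative Sumf2 was at 27.1 FPKM in aged and 22.6 FPKM in young libraries without overlap (limma adjusted p = 0.245). Ugdh, which makes UDP-glucuronic acid, was at 20.6 FPKM in aged and 17.7 FPKM in young libraries with overlap. The PAPS transporter Slc35b2 and the phosphatase Impad1 were at 48.2 and 39.0 FPKM in aged libraries, against 49.1 and 41.1 FPKM in young ones.

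None of 7 tested genes for release or for binding of the syndecan tail passed limma (0 called, 2 lower at an unadjusted p under 0.05). Over all tested genes, 5.55% were lower at that unadjusted p. Syntenin (Sdcbp), the PDZ protein of the tail shown above, was at 67.31, 67.60 and 69.92 FPKM in aged and 68.70, 69.21 and 67.05 FPKM in young libraries. The sheddases Mmp14 and Adam10 were lower without overlap, Mmp14 at 28.3 ± 0.730 FPKM in aged and 32.9 ± 1.69 FPKM in young libraries and Adam10 at 39.9 ± 0.259 FPKM in aged and 42.8 ± 0.475 FPKM in young ones (SD, n = 3 each). Their limma adjusted p was 0.147 and 0.365. Adam17, of the same list, was at 20.9 FPKM in aged and 20.6 FPKM in young libraries with overlap (limma adjusted p = 0.932). Gipc1, which binds syndecan tails, was at 71.9 FPKM in aged and 67.2 FPKM in young libraries.

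Among 13 tested ligands and receptors that bind heparan sulfate, Vegfa rose and Hbegf fell. With these counted, 2 were higher and 4 lower at an unadjusted p under 0.05, beside 6.30% and 5.55% of all tested genes. Hbegf, the heparin-binding ligand of the EGF receptor, had 29.93, 30.77 and 29.76 FPKM in aged libraries, against 39.19, 39.59 and 37.33 FPKM in young ones. The groups lay well apart, by -0.35 ± 0.04 on the log2 scale (SE; limma adjusted p = 0.0118). That p was 0.0643 in the blocked fit and 0.0809 when limma's trend was left out, and 0.0547, 0.0593 and 0.0630 without aged 1, young 1 or young 2. Vegfa, of which some isoforms bind heparan sulfate, had 41.49, 45.99 and 41.51 FPKM in aged libraries, against 22.62, 23.46 and 20.55 FPKM in young ones. It averaged 43.0 ± 2.59 FPKM in aged and 22.2 ± 1.498 FPKM in young libraries (SD, n = 3 each; limma adjusted p = 0.00115). Fgf1 was at 11.77, 13.29 and 13.59 FPKM in aged and 17.07, 15.40 and 15.06 FPKM in young libraries. Fgfr3, an FGF receptor, was at 59.07, 58.99 and 52.69 FPKM in aged and 47.00, 49.06 and 47.75 FPKM in young libraries. Neither group overlapped the other in these genes (limma adjusted p = 0.182 and 0.0970), and without aged 3 the adjusted p of Fgfr3 was 0.0433. Fgfr2 went the other way without overlap, at 3.12 FPKM in aged and 3.94 FPKM in young libraries (limma adjusted p = 0.414). Fgfr1 was at 46.3 FPKM in aged and 47.9 FPKM in young libraries with overlap. Midkine (Mdk) was at 1.67 to 2.37 FPKM in aged and 3.01 to 6.16 FPKM in young libraries, or about 9.93 estimated reads in aged and 20.9 in young ones (limma adjusted p = 0.164). Its relative pleiotrophin (Ptn), the most abundant ligand listed, was at 474.9 FPKM in aged and 485.0 FPKM in young libraries with overlap.

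**Figure D5:**
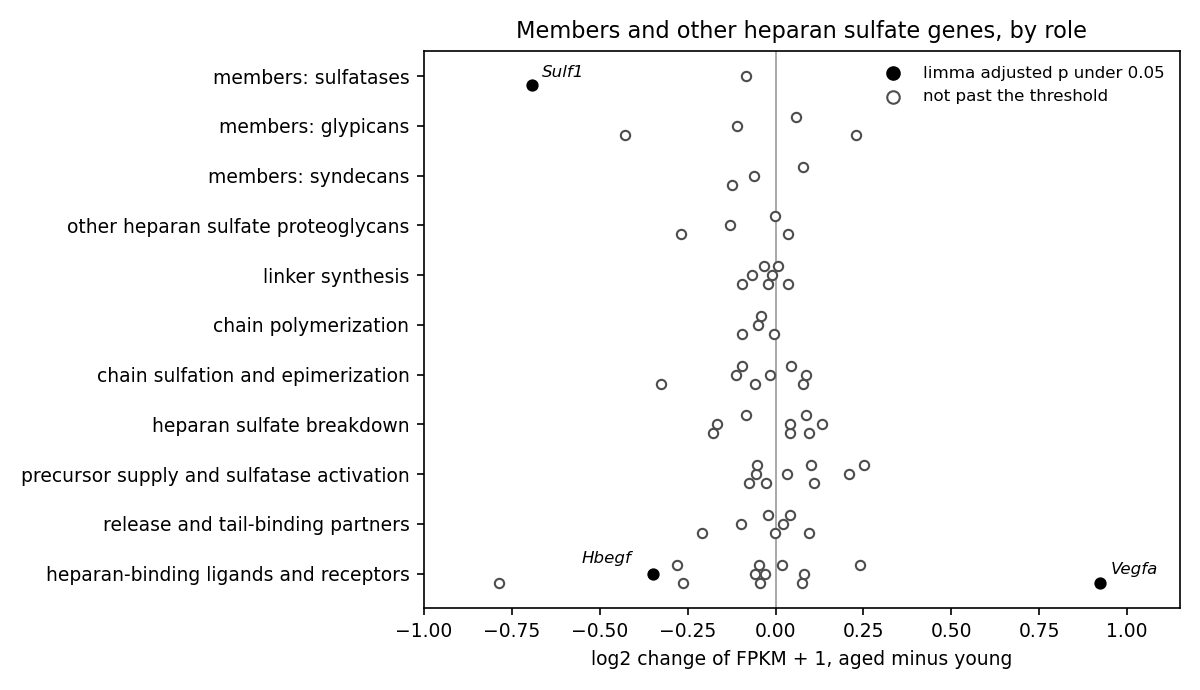
Log2 change of FPKM + 1, aged minus young, for the tested genes of each list, 1 point per gene, with the members above the 8 lists of other heparan sulfate genes. Filled, named points have a limma adjusted p under 0.05 (Sulf1 at -0.69, Hbegf at -0.35, Vegfa at 0.92), and the other points are open.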

How the data were processed

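The authors deposited a table of FPKM values, rounded to 2 decimals, for each of the 6 libraries. The submitters' processing notes name TopHat, Cuffdiff and mm10. Versions, strand setting and the scaling between libraries are not given in the sources used here. Total RNA (1 ug) was depleted of rRNA, per the labels' protocols.

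FPKM are not counts, so no count test was used. Genes whose mean reached 1 FPKM were fitted by limma 3.58.1 (R 4.3.3) with moderated, trended variances and no covariates, 3 aged and 3 young libraries, on log2(FPKM + 1), a scale that understates the change of low genes. Depth was estimated from steps between low values of single-transcript genes, and estimated reads use GENCODE M21 transcript lengths, so they are approximate. Coordinates are RefSeq's on GRCm38.p6, the mm10 assembly, counted from 1.

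The members and lists were chosen with earlier results of these data known. Named from each list were the called genes, or else the 3 of highest mean. Gpc5, Col18a1, Hs3st3b1, Hs6st2, Sumf1, Sumf2, Ugdh, Mmp14, Adam17, Fgf1, Fgfr1, Fgfr2, Fgfr3, Mdk, Ptn and Hpse were named after their values were seen. Hs3st6 and Hpse2 were not analysed here. One gene that the rule names is not reported here. Alternatives covered the pseudocount, the filter, the scaling, limma's trend, a replicate block and leaving out each library. Figures were drawn with Python 3.11.15 and matplotlib 3.10.9.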

Additional observations from a re-analysis of the deposited data

How the results depend on the processing

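Over all tested genes 86 were called, 11 when limma's trend was left out and 22 in the fit with the replicate block, of which 10 and 21 were among the 86. Leaving out a library gave 39 to 70 calls. Sulf1 was the called member (1), and 0 members were called without the trend, with no filter on low values or with the replicate block, and 0 to 1 when a library was left out. Of the pathway genes 2 were called, against 1 without the trend, 1 with the replicate block and 1 to 3 when a library was left out; Vegfa was called in all 15 alternatives and Hbegf in 10. The cause was not tested. Replicate numbers were not taken as pairing the samples, because same-numbered libraries deviated together by correlations of only 0.008, -0.072 and 0.108, and the first aged library correlated best with the second young one. The other 8 tested members kept their sign in every alternative and passed in none.

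Genes near no change turned sign: Ext2 was 0.0001 under quantile normalization, and with a library left out Ext2 ranged from -0.0723 to 0.039, Agrn from -0.0265 to 0.0279, Fam20b from -0.0947 to 0.0109, Slc35b2 from -0.0685 to 0.0092 and Sdcbp from -0.018 to 0.0091 on the log2 scale. Depth limits Gpc3, Gpc5, Mdk and Hpse, each with fewer than 30 estimated reads in every library. No count test was run, since the files hold FPKM.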
